A study of Mus musculus with 12 samples.

Results

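The prostaglandin synthesis and receptor genes comprised 9 mouse genes, Ptgs1, Ptgs2, Ptges, Ptgis, Ptger1, Ptger2, Ptger4, Ptgfr and Hpgd, out of 49671 gene identifiers in the count files. They were selected on their symbols and roles, with earlier results of these data known. The selection also named Ptgs2 as the gene with the largest serum rise in control siRNA cells. The control serum response of the 9 genes and the difference of the serum responses that contains it are therefore descriptions without a test. For Ptgs2 the same holds for every comparison with control libraries. All 9 matched an identifier, and 7 of the 9 exceeded a count of 1 in 3 or more libraries, as did 18668 genes in all. Ptger2 and Hpgd had 0 counts in all 12 libraries.

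Prostaglandins are lipid mediators made from arachidonic acid, which phospholipases release from membranes. The cyclooxygenases Ptgs1 and Ptgs2 turn it into the intermediate PGH2, terminal synthases such as Ptges and Ptgis turn PGH2 into PGE2 or prostacyclin, and the products act on G protein-coupled receptors at the cell surface before enzymes such as Hpgd inactivate them. Ptgs1 is generally regarded as the constitutive and Ptgs2 as the inducible cyclooxygenase, and Ptgs2 is a well known immediate early gene of serum-stimulated fibroblasts.

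The libraries came from NIH 3T3, a mouse fibroblast line, transfected with a negative control siRNA or with an siRNA against Lap2, the lamina-associated polypeptide encoded by Tmpo. Cells of each kind were kept in 0.3% fetal bovine serum (FBS), the starved state, or were given 15% FBS for 45 min, which makes 4 groups of 3 libraries. All 12 libraries are from 1 line, and all 6 Lap2 libraries carry the same siRNA against total Lap2. Total counts ran from 18026298 to 26265253 per library, and a floor of 3 counts equalled 0.114 to 0.166 CPM (counts scaled to the library total), a limit that covers counting error only.

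Tmpo had 2775, 2805 and 2885 normalized counts in starved control libraries and 982, 1175 and 1093 in starved Lap2 siRNA libraries, a log2 fold change of -1.38 ± 0.08 (SE, n = 3 per group, edgeR adjusted p = 8.7e-16). A normalized count is the count scaled to a common library size with edgeR's TMM factors. After serum the control libraries had 3264, 3243 and 3019 normalized counts of Tmpo and the Lap2 siRNA libraries 767, 745 and 607 (log2 fold change -2.17 ± 0.08, edgeR adjusted p = 3.8e-19), so the target was lower in each of the 6 Lap2 siRNA libraries. In Lap2 siRNA cells Tmpo was lower after serum than when starved (log2 fold change -0.62 ± 0.08, edgeR adjusted p = 1.9e-07). Its serum response in Lap2-depleted minus that in control cells was -0.79 ± 0.11 (edgeR adjusted p = 3.0e-06). Depletion of Tmpo thus differed between the serum states, and its part in the differences of serum responses below was not tested. All 10 fibroblast markers listed exceeded 1 TPM (counts per exon length, scaled to the library total), led by Col1a1 at a mean of 3170 TPM. Of 6 leukocyte markers only Cd68 had a mean over the 12 libraries above 1 TPM, at 5.02 TPM, and Itgam was at 0. Csf1r reached 1.01 TPM in starved Lap2 siRNA replicate 2. None of 4 endothelial or 5 epithelial markers had a mean above 1 TPM, with Krt18 at 0. The summed fibroblast markers were at 16600 to 17161 TPM in starved control, 15963 to 17137 TPM in serum-stimulated control, 10236 to 13047 TPM in starved Lap2 siRNA and 11278 to 12699 TPM in serum-stimulated Lap2 siRNA libraries, and the part of this difference in the results below was not tested. The markers did not move together. In starved cells 6 of the 10 were lower in all 3 Lap2 siRNA libraries than in any control library, with Col3a1 at 1060 to 1290 against 3420 to 3640 TPM. Fn1, at 2280 to 3400 against 2010 to 2250 TPM, and S100a4, at 223 to 319 against 162 to 202 TPM, were higher, and Pdgfrb and Thy1 overlapped. In serum-stimulated cells 8 were lower and 2, Pdgfrb and S100a4, were higher. Of all tested genes, edgeR called 17.8% higher and 18.6% lower with Lap2 siRNA in 0.3% FBS (adjusted p under 0.05). In 15% FBS it called 11.4% higher and 12.1% lower. A lack of overlap between libraries is another measure, and its share over all genes is not given here. In these bulk libraries, fewer cells of a type and less RNA per cell cannot be told apart.

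Start-site sequences were read from RefSeq (build GRCm38.p6), which held a window of 250 bases before and 50 after the start for 7 of the 9 genes, all but Ptgis and Ptger1. The windows of Ptgs2 and Ptger4, the genes with the largest serum response among the 9, and of Ptgs1, the other cyclooxygenase, are shown from 120 bases before to 30 bases after the start. Capitals mark matches, on either strand, to an E-box spelled CACGTG, to the core of a cAMP response element spelled TGACG or its full form spelled TGACGTCA, to a TATA box spelled TATAAA, to a GC box spelled GGGCGG or to the CArG box.
Ptgs2, chr1:150099911-150100060, plus strand: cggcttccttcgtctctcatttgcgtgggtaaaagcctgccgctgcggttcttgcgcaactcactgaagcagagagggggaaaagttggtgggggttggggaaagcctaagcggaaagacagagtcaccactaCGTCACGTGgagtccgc
Ptger4, chr15:5244158-5244307, minus strand: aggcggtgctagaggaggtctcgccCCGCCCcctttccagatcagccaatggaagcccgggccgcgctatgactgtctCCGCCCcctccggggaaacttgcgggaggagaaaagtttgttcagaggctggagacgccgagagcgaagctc
Ptgs1, chr2:36230306-36230455, plus strand: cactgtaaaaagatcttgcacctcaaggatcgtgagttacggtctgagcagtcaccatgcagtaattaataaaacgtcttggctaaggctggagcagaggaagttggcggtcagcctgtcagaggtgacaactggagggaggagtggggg
In Ptgs2 the E-box lay at bases 17 to 22 after the annotated start and the TGACG match, read on the opposite strand as CGTCA, at bases 14 to 18, so the pair shared 2 bases. A GC box lay at bases -170 to -165, before the bases shown. Among 32851 RefSeq windows of 300 bases, 7.15% held CACGTG and 20.8% held TGACG. Ptger4 held 4 GC boxes in its 300-base window, of which 2 are in the bases shown, and 35.7% of all windows held at least 1. Ptges and Ptgfr held 2 GC boxes each and Hpgd held 1, with a TATAAA at bases 5 to 10 after its start, a spelling in 13.6% of all windows. Ptgs1 and Ptger2 held none of the 6 motifs. No window of the 7 genes held a CArG box, the motif bound by SRF, which was in 1.63% of all windows, or the full TGACGTCA, which was in 1.79%. These matches are descriptions of letters, and binding was not measured in these libraries.

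Serum and Lap2 siRNA each moved several of the genes. In starved cells Lap2 siRNA raised Ptgs1, Ptges and Ptger4 and lowered Ptgis, and Ptgs2 stood at 4.67 times its control level, given as a description. After serum the Ptgs2 level was near that of control cells. In Lap2-depleted cells serum raised Ptgs2, Ptger4, Ptgis and Ptges and lowered Ptgs1 and Ptgfr.

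**Figure D1:**
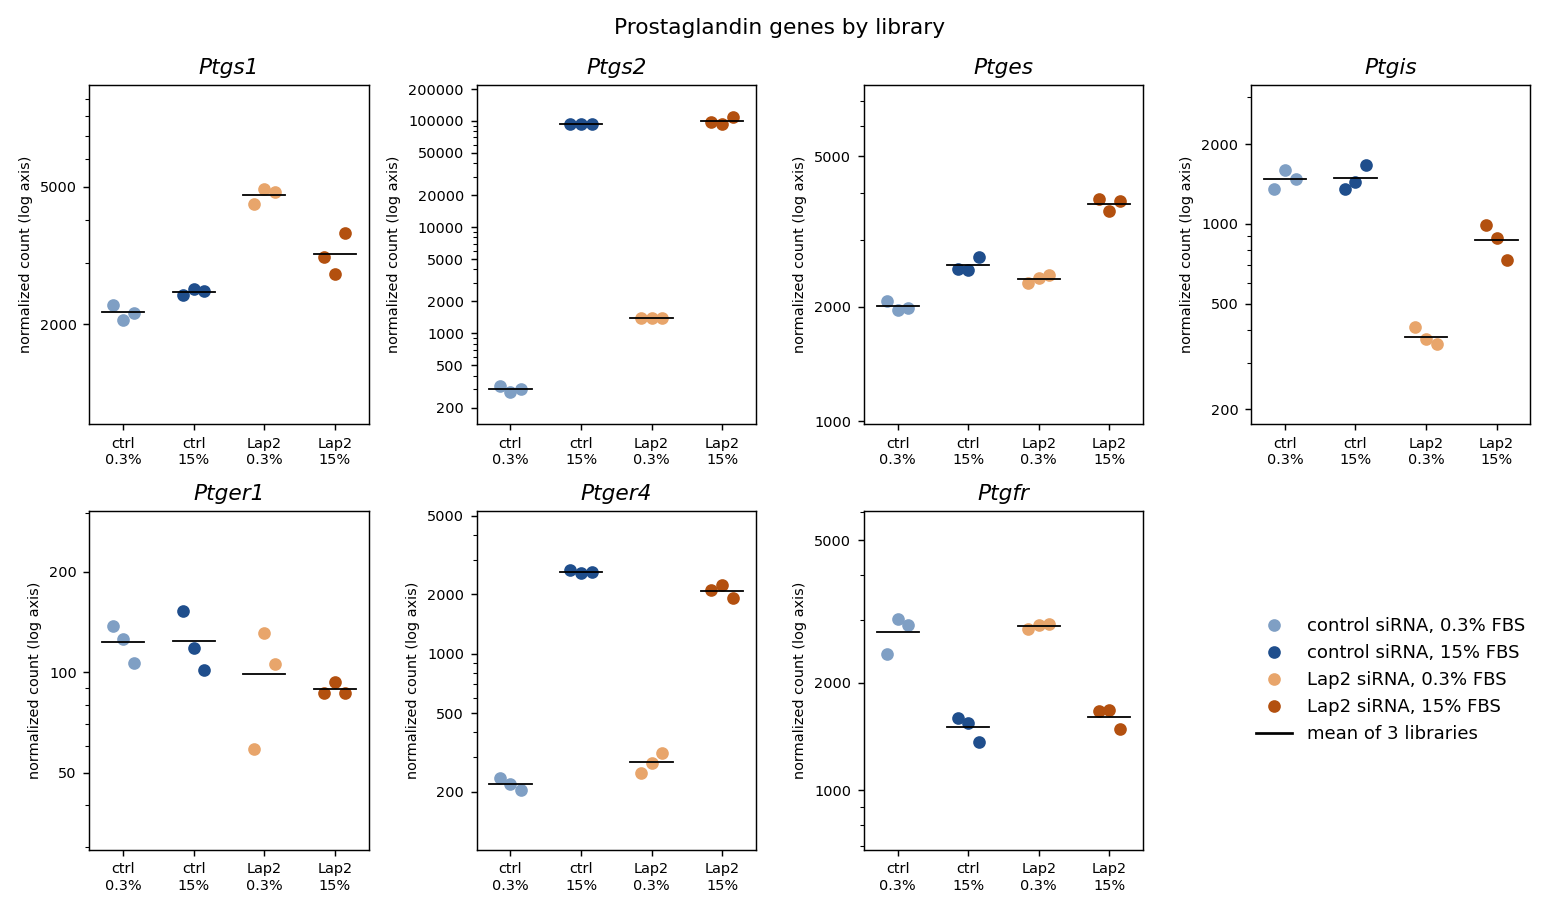
Normalized counts (log axes, a separate range per gene) of the 7 genes that passed the count filter, 1 point per library, with a bar at the mean of the 3 libraries of each group (control or Lap2 siRNA, 0.3% or 15% FBS). Starved control libraries hold 279.9 to 317 normalized counts of Ptgs2 and serum-stimulated ones 93475 to 94315, Ptgis is lowest in starved Lap2 siRNA cells and Ptgs1 is highest there.

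Ptgs2, on chromosome 1 from 150100031 to 150108227 of GRCm38, encodes the inducible cyclooxygenase. It had 317, 279.9 and 302 normalized counts in starved control libraries and 94315, 94216 and 93475 after 45 min of serum. The log2 fold change was 8.29 ± 0.07 (SE, n = 3 per group), a 314-fold difference and the largest of the 10449 genes whose mean reached 100 normalized counts. The next genes in that order were Egr4 at 8.23 and Nr4a1 at 8.16. Ptgs2 took 0.00138 to 0.00156% of the counts in starved control libraries and 0.396 to 0.405% after serum, where it ranked 15 by count among all genes in each of the 3 libraries.

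With Lap2 siRNA, starved cells already had 1405, 1381 and 1407 normalized counts of Ptgs2, all above the 3 starved control libraries. The log2 fold change over control was 2.22 ± 0.07 (4.67-fold), given without a test because it rests on the starved control libraries that also gave Ptgs2 its place in the selection. After serum Lap2-depleted cells had 98387, 94338 and 109308 normalized counts, a rise of 6.17 ± 0.06 on the log2 scale (72.0-fold, edgeR adjusted p = 2.0e-34), rank 9 of the same 10449 genes.

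At 15% FBS the Ptgs2 levels of the 2 siRNA groups lay next to each other. The lowest Lap2 siRNA library, at 94338, was just above the highest control library, at 94315. The log2 difference was 0.10 ± 0.06 with a 95% interval from -0.02 to 0.22. It was 0.19 with scaling to total counts and 0.02 without serum-stimulated Lap2 siRNA replicate 3, the library at 109308. The log2 serum response in Lap2-depleted cells minus that in control cells was -2.12 ± 0.09, given without a test. The Ptgs2 levels of the siRNA groups differed by 4.67-fold before serum and by 1.07-fold after it.

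Ptgs1, on chromosome 2 from 36230426 to 36252272, encodes the cyclooxygenase usually described as constitutive. It had 2279, 2055 and 2151 normalized counts in starved control libraries and 2427, 2521 and 2495 after serum, a log2 fold change of 0.20 ± 0.08, which became -0.01 with scaling to total counts. Starved Lap2 siRNA libraries had 4463, 4927 and 4841, more than any other group. Lap2 siRNA raised Ptgs1 by 1.13 ± 0.07 on the log2 scale in starved cells (2.19-fold, edgeR adjusted p = 5.8e-14), rank 136 from the top.

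Serum lowered Ptgs1 in Lap2-depleted cells to 3119, 2791 and 3680.1 normalized counts, with no overlap with the starved libraries (log2 fold change -0.57 ± 0.07, edgeR adjusted p = 1.6e-07). These were still above the serum-stimulated control libraries (0.37 ± 0.07, adjusted p = 3.3e-04). The log2 serum response of Ptgs1 in Lap2-depleted cells minus that in control cells was -0.77 ± 0.11, a description. Compared per length in TPM, the Ptgs2 to Ptgs1 ratio was 0.117 ± 0.00208 (SD, n = 3) in starved control, 32.2 ± 0.723 in serum-stimulated control, 0.25 ± 0.015 in starved Lap2 siRNA and 26.9 ± 1.75 in serum-stimulated Lap2 siRNA cells. Ptgs1 was therefore the more abundant cyclooxygenase transcript in all 6 starved libraries and Ptgs2 in all 6 serum-stimulated libraries.

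**Figure D2:**
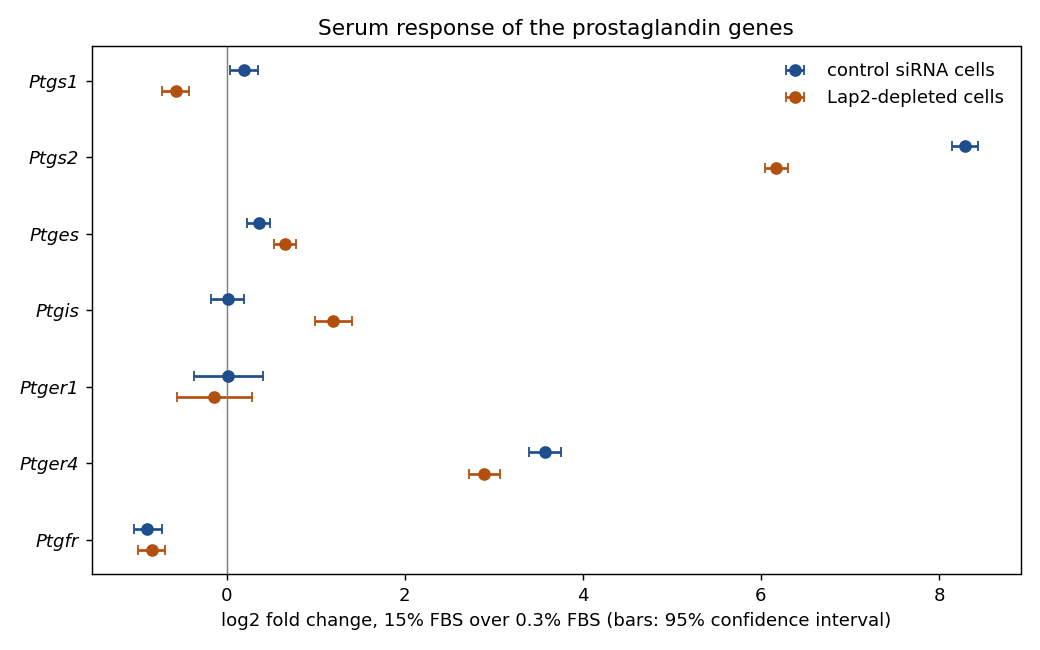
Log2 fold change of 15% over 0.3% FBS for the 7 genes in control siRNA and Lap2-depleted cells, with 95% confidence intervals from the edgeR fit. Ptgs2 and Ptger4 lie far to the right in both, Ptgfr lies at -0.89 and -0.84, and Ptgis lies at 0.01 in control and 1.20 in Lap2-depleted cells; Ptgs1, at 0.20 in control cells, moves to -0.01 with scaling to total counts.

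Ptges, on chromosome 2 from 30889471 to 30929863, encodes the inducible microsomal PGE2 synthase that couples to the cyclooxygenases. It had 2071, 1964 and 1991 normalized counts in starved control and 2522, 2502 and 2703 in serum-stimulated control libraries (log2 fold change 0.36 ± 0.06). In Lap2 siRNA cells it had 2311, 2384 and 2432 when starved and 3850.0, 3572 and 3812 after serum, the highest group. Serum raised Ptges in Lap2-depleted cells by 0.66 ± 0.06 on the log2 scale (edgeR adjusted p = 1.9e-10).

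Lap2 siRNA raised Ptges in both states, by 0.24 ± 0.06 in 0.3% FBS (edgeR adjusted p = 0.0023) and by 0.54 ± 0.06 in 15% FBS (adjusted p = 3.0e-08). The log2 serum response in Lap2-depleted minus that in control cells was 0.30 ± 0.09, a description.

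Ptgis, on chromosome 2 from 167191805 to 167240604, encodes prostacyclin synthase, a cytochrome P450 that competes for the same PGH2. Control libraries had 1351, 1605 and 1472 normalized counts when starved and 1353, 1437 and 1672 after serum, which overlap (log2 fold change 0.01 ± 0.09). Starved Lap2 siRNA libraries had 409.5, 367 and 352, all below every control library. The log2 fold change was -1.97 ± 0.10 (3.92-fold lower, edgeR adjusted p = 7.8e-17), rank 39 from the bottom of the 10449 genes.

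Serum raised Ptgis in Lap2-depleted cells to 991, 882 and 729 normalized counts (log2 fold change 1.20 ± 0.10, edgeR adjusted p = 1.6e-11), still below the serum-stimulated control libraries (-0.78 ± 0.09, adjusted p = 6.9e-08). The difference of the 2 log2 serum responses was 1.19 ± 0.14, a description. Per length, the Ptges to Ptgis ratio in TPM was 0.894 ± 0.101 (SD, n = 3) in starved control and 1.14 ± 0.08 in serum-stimulated control cells, and 4.15 ± 0.418 and 2.86 ± 0.476 in the corresponding Lap2 siRNA cells. The 6 Lap2 siRNA libraries, from 2.54 to 4.51, did not overlap the 6 control libraries, from 0.799 to 1.22.

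**Figure D3:**
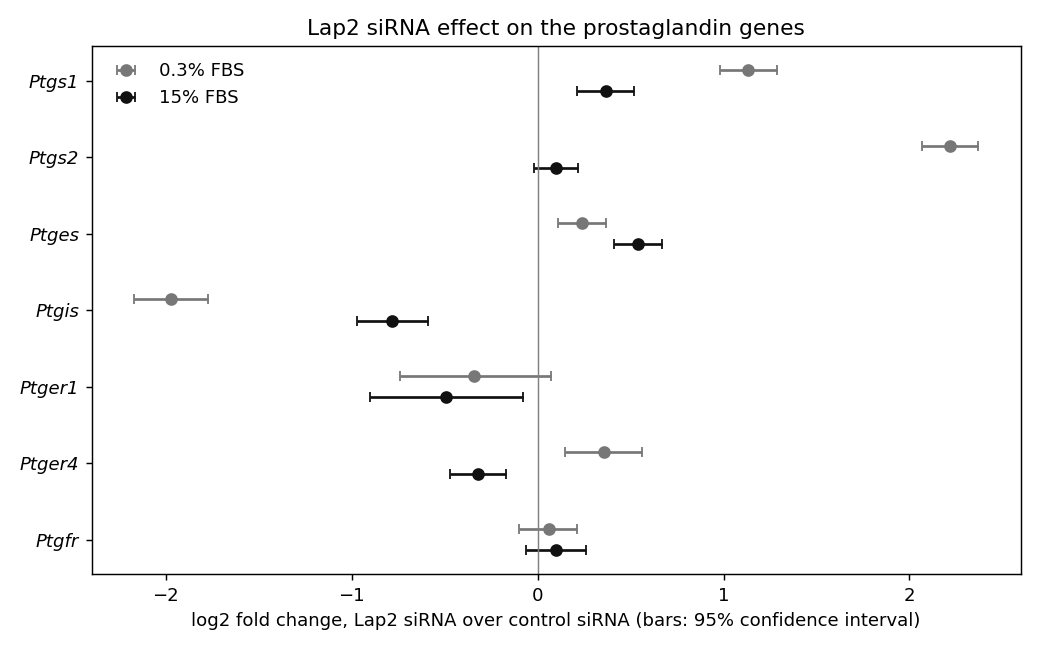
Log2 fold change of Lap2 siRNA over control siRNA for the 7 genes in 0.3% and 15% FBS, with 95% confidence intervals from the edgeR fit. Ptgs2 stands at 2.22 in 0.3% FBS and 0.10 in 15% FBS, Ptgis is below 0 in both, and Ptger4 is at 0.36 in 0.3% FBS and -0.32 in 15% FBS.

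Ptger4, on chromosome 15 from 5206661 to 5244187, encodes the EP4 receptor for PGE2, which couples to Gs and raises cAMP. It had 237, 218 and 204 normalized counts in starved control and 2651, 2579 and 2593 in serum-stimulated control libraries, a log2 fold change of 3.57 ± 0.09 (11.9-fold), rank 67. In Lap2 siRNA cells it had 249.7, 281 and 315 when starved and 2116, 2242 and 1907 after serum. This rise of 2.89 ± 0.09 on the log2 scale (7.42-fold, edgeR adjusted p = 8.1e-24) was rank 74.

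Lap2 siRNA raised Ptger4 slightly in starved cells (0.36 ± 0.10, edgeR adjusted p = 0.0043) and lowered it in serum-stimulated cells (-0.32 ± 0.07, adjusted p = 0.0011), without overlap between libraries in either state. The log2 serum response in Lap2-depleted minus that in control cells was -0.68 ± 0.12, a description. Ptger4 shares 82 exon bases with the opposite-strand gene Ttc33.

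Ptgfr, on chromosome 3 from 151796502 to 151837630, encodes the FP receptor for PGF2alpha, which couples to Gq. Its level went the other way from that of Ptger4 with serum. Control libraries had 2400.5, 3019 and 2895 normalized counts when starved and 1593, 1539 and 1366 after serum (log2 fold change -0.89 ± 0.08). Lap2 siRNA libraries had 2831, 2902 and 2921 when starved and 1670.3, 1674 and 1481 after serum, a fall of 0.84 ± 0.08 (the log2 fold change is -0.84, edgeR adjusted p = 9.2e-11).

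No Lap2 siRNA effect on Ptgfr passed the test, with 95% intervals from -0.10 to 0.21 in 0.3% FBS (edgeR adjusted p = 0.61) and from -0.06 to 0.26 in 15% FBS (adjusted p = 0.42). The difference of its serum responses was 0.04 with an interval from -0.18 to 0.26. Ptgfr shares 329 exon bases with the opposite-strand transcript Gm43618, which had a mean of 254 counts.

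Ptger1, on chromosome 8 from 83666678 to 83672753, encodes the EP1 receptor for PGE2. It was low, at 137, 126 and 107 normalized counts in starved control, 153, 119 and 101 in serum-stimulated control, 58.8, 131 and 106 in starved Lap2 siRNA and 86.6, 93.3 and 87.0 in serum-stimulated Lap2 siRNA libraries. Starved Lap2 siRNA replicate 1 was the lowest library. The use of strand in the counting is not given in the sources used here, and the Ptger1 counts are uncertain.

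No contrast that was tested passed for Ptger1. The log2 fold change was -0.14 with serum in Lap2-depleted cells (95% interval -0.56 to 0.28, edgeR adjusted p = 0.68), -0.34 with Lap2 siRNA in 0.3% FBS (-0.74 to 0.07, adjusted p = 0.20) and -0.49 with Lap2 siRNA in 15% FBS (-0.90 to -0.08, adjusted p = 0.077). Without starved Lap2 siRNA replicate 2 the 0.3% FBS value was -0.58 (edgeR adjusted p = 0.03), and without replicate 1 of that group, its lowest library, it was -0.04 (adjusted p = 0.88). The 15% FBS value ran from -0.32 without serum-stimulated control replicate 1 (adjusted p = 0.36) to -0.61 without replicate 3 of that group (adjusted p = 0.045). It was -0.50 and called without starved Lap2 siRNA replicate 1 or 2 (adjusted p = 0.017 and 0.046), with any gene above 0 counts kept (adjusted p = 0.022) and with only the libraries of the contrast in the fit (adjusted p = 0.026).

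Ptger2, the EP2 receptor, and Hpgd, the dehydrogenase that starts prostaglandin breakdown, were at 0 in every library, so a level of up to 0.114 to 0.166 CPM per library was not detectable at this depth. Ptger3 and Ptgdr, receptors for PGE2 and PGD2, were also at 0 throughout. The highest count in a library was 2 for Ptgdr2, a PGD2 receptor, and 1 for Hpgds, a PGD2 synthase.

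Per length, the receptors together had 85.2 ± 7.91 TPM (SD, n = 3) in starved control, 95.4 ± 4.72 in serum-stimulated control, 88.1 ± 8.12 in starved Lap2 siRNA and 86.5 ± 6.92 in serum-stimulated Lap2 siRNA cells. Within that sum Ptger4 made up 6.37 ± 0.989% in starved and 60.1 ± 1.84% in serum-stimulated control cells, and 8.42 ± 0.691% and 53.8 ± 0.493% in the corresponding Lap2 siRNA cells. Ptgfr made up 78.1 ± 2.86% and 33.8 ± 1.47% in control and 84.7 ± 1.69% and 40.7 ± 0.755% in Lap2 siRNA cells. FP was thus the leading receptor transcript in all 6 starved libraries and EP4 in all 6 serum-stimulated libraries.

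**Figure D4:**
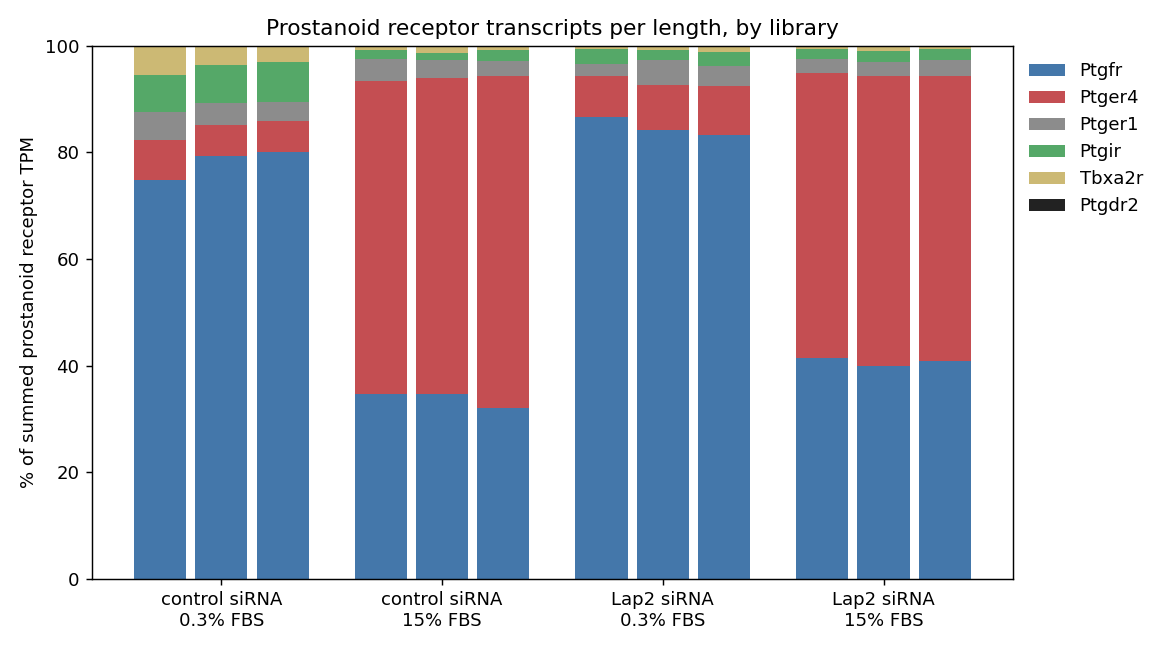
Share of each receptor in the summed TPM of the prostanoid receptors, 1 stacked bar per library, 3 libraries per group. Ptgfr takes most of the bar in 0.3% FBS and Ptger4 takes most of it in 15% FBS, in control and Lap2 siRNA libraries.

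Ordered by TPM, starved control cells had Ptgis at 93.7 ± 8.84 (SD, n = 3), Ptgs1 at 90.6 ± 4.08, Ptges at 83.2 ± 1.90, Ptgfr at 66.6 ± 8.26, Ptgs2 at 10.7 ± 0.579, Ptger4 at 5.38 ± 0.404 and Ptger1 at 3.68 ± 0.468. The libraries of Ptgis and Ptgs1 overlapped, and the other neighbours did not. After serum Ptgs2 led at 2997 ± 48.0 TPM, followed by Ptges at 95.7 ± 3.07, Ptgs1 at 93.3 ± 1.72 and Ptgis at 84.5 ± 8.40, of which Ptges and Ptgs1, and Ptgs1 and Ptgis, overlapped. Starved Lap2 siRNA cells had another order, with Ptgs1 at 214 ± 23.3 TPM, Ptges at 106 ± 8.61, Ptgfr at 74.5 ± 5.52, Ptgs2 at 53.4 ± 2.91 and Ptgis at 25.6 ± 0.747, and no neighbours among these overlapped. In serum-stimulated Lap2 siRNA cells Ptgs2 led at 3260 ± 237 TPM, before Ptges at 141 ± 4.43 and Ptgs1 at 122 ± 16.5, which overlapped.

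In Lap2-depleted cells serum raised 4 of the 7 genes and lowered 2 (edgeR, adjusted p under 0.05), against 18.3% and 14.9% of all tested genes, with a median log2 fold change of 0.66 against 0.00. Of the 6 genes other than Ptgs2, Lap2 siRNA raised 3 and lowered 1 in 0.3% FBS, against 17.8% and 18.6% (median 0.15 against 0.01), and raised 2 and lowered 2 in 15% FBS, against 11.4% and 12.1% (median -0.11 against 0.02). The serum response in Lap2-depleted cells shares its libraries with both Lap2 siRNA contrasts, so the counts are not independent of each other.

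The genes around the 9 in the pathway were taken from 4 further lists of 38 genes, of which 28 were tested. Lap2 siRNA in starved cells raised 11 and lowered 8 of the 28 (edgeR adjusted p under 0.05), against 17.8% and 18.6% of all tested genes. In serum-stimulated cells it raised 8 and lowered 4, against 11.4% and 12.1%. Serum raised 6 and lowered 5 in control cells, against 15.6% and 13.9%, and raised 3 and lowered 6 in Lap2-depleted cells, against 18.3% and 14.9%. The edgeR interaction, the serum response in Lap2-depleted minus that in control cells, was called above 0 for 1 and below 0 for 6 of the 28, against 7.09% and 6.51%.

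Arachidonate release came to 12 tested genes of 17, of which Lap2 siRNA raised 5 and lowered 2 in 0.3% FBS, against 17.8% and 18.6% of all tested genes, with a median log2 fold change of 0.30 against 0.01. In 15% FBS it raised 2 and lowered 2, against 11.4% and 12.1%, with a median of -0.13 against 0.02. Serum raised 3 and lowered 2 of the 12 in control cells (median 0.18 against -0.01) and raised 1 and lowered 4 in Lap2-depleted cells (median -0.34 against 0.00), where 15.6% and 13.9%, and 18.3% and 14.9%, of all tested genes were raised and lowered. Pla2g4a, the cytosolic phospholipase A2 that supplies arachidonate to the cyclooxygenases, lies 138740 bases from Ptgs2 on chromosome 1. Starved control libraries ranged from 870 to 1005 and starved Lap2 siRNA libraries from 1850.1 to 1938 normalized counts, a rise of 0.97 ± 0.07 on the log2 scale (edgeR adjusted p = 2.0e-12). Serum then raised it by 0.32 ± 0.08 in control cells (adjusted p = 0.0014) and lowered it in Lap2-depleted cells (-0.40 ± 0.07, adjusted p = 4.9e-05), an interaction of -0.72 ± 0.11 (adjusted p = 8.2e-06).

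Pla2g7, a secreted phospholipase that hydrolyses platelet-activating factor, rose by 1.13 ± 0.09 with Lap2 siRNA in 0.3% FBS (edgeR adjusted p = 1.6e-12) and had an interaction of -1.25 ± 0.12 (adjusted p = 4.8e-09). Pla2g15, the lysosomal phospholipase A2, fell with Lap2 siRNA in both states (-0.94 ± 0.09, adjusted p = 6.1e-10, and -0.85 ± 0.10, adjusted p = 3.1e-08). Anxa1, annexin A1, known as an inhibitor of phospholipase A2, rose with serum in control cells by 0.96 ± 0.06 (edgeR adjusted p = 4.0e-14) and in Lap2-depleted cells by 0.57 ± 0.06 (adjusted p = 8.4e-09).

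Of 9 other prostanoid synthesis genes 7 were tested, and Lap2 siRNA raised 3 and lowered 1 in 0.3% FBS, against 17.8% and 18.6% of all tested genes. In 15% FBS it raised 4 and lowered 0, against 11.4% and 12.1%. The medians were 0.28 and 0.29, against 0.01 and 0.02 for all tested genes. Akr1b3, an aldose reductase able to make PGF2alpha, rose by 0.92 ± 0.07 in 0.3% FBS (edgeR adjusted p = 6.1e-12) and by 0.60 ± 0.08 in 15% FBS (adjusted p = 2.0e-07). The cytosolic and membrane PGE2 synthases Ptges3 and Ptges2 rose by 0.35 ± 0.07 (adjusted p = 6.8e-05) and 0.28 ± 0.10 (adjusted p = 0.023) in 0.3% FBS.

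The list of other receptors held 5 receptors and the receptor-binding protein Ptgfrn. The receptors Ptgir and Tbxa2r and Ptgfrn were tested, and Lap2 siRNA lowered all 3 in 0.3% FBS, against 18.6% of all tested genes (median -1.61 against 0.01). In 15% FBS it lowered 1, Ptgfrn, against 12.1% (median -0.69 against 0.02). Ptgir, the receptor for prostacyclin and so the partner of Ptgis, had 109.9 to 135 normalized counts in starved control, 30.7 to 42.4 in serum-stimulated control, 33.3 to 45.9 in starved Lap2 siRNA and 35.7 to 42.4 in serum-stimulated Lap2 siRNA libraries. Only the starved control group stood apart. Ptgir fell with serum in control cells (-1.77 ± 0.20, edgeR adjusted p = 8.0e-09) and with Lap2 siRNA in 0.3% FBS (-1.61 ± 0.20, adjusted p = 3.8e-08), and its serum response in Lap2-depleted cells was -0.11 ± 0.23 (adjusted p = 0.78). Ptgfrn, a membrane protein that binds the FP receptor and limits its ligand binding, fell with Lap2 siRNA by 0.94 ± 0.07 in 0.3% FBS (log2 fold change -0.94, adjusted p = 2.2e-13) and was lower in 15% FBS too (-0.74 ± 0.07, adjusted p = 1.6e-10).

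All 6 transport and clearance genes were tested, and Lap2 siRNA raised 3 and lowered 2 in 0.3% FBS, against 17.8% and 18.6% of all tested genes (median 0.27 against 0.01). In 15% FBS it raised 2 and lowered 1, against 11.4% and 12.1% (median -0.03 against 0.02). Abcc4, an exporter of prostaglandins and cyclic nucleotides, ranged from 65.8 to 74.6 normalized counts in starved control and from 207 to 279.8 in starved Lap2 siRNA libraries, a rise of 1.83 ± 0.16 (edgeR adjusted p = 4.2e-11). It was raised by 0.58 ± 0.16 in 15% FBS (adjusted p = 0.0079), and the interaction was -1.25 ± 0.23 (adjusted p = 1.8e-04). Zadh2, a prostaglandin reductase, rose by 0.56 ± 0.09 and 0.71 ± 0.09 with Lap2 siRNA in 0.3% and 15% FBS (adjusted p = 2.8e-06 and 1.4e-07). With 1 gene of this list and 1 of arachidonate release that were at 0 in all starved control libraries set to their floor, the medians stayed at 0.27 and 0.30.

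**Figure D5:**
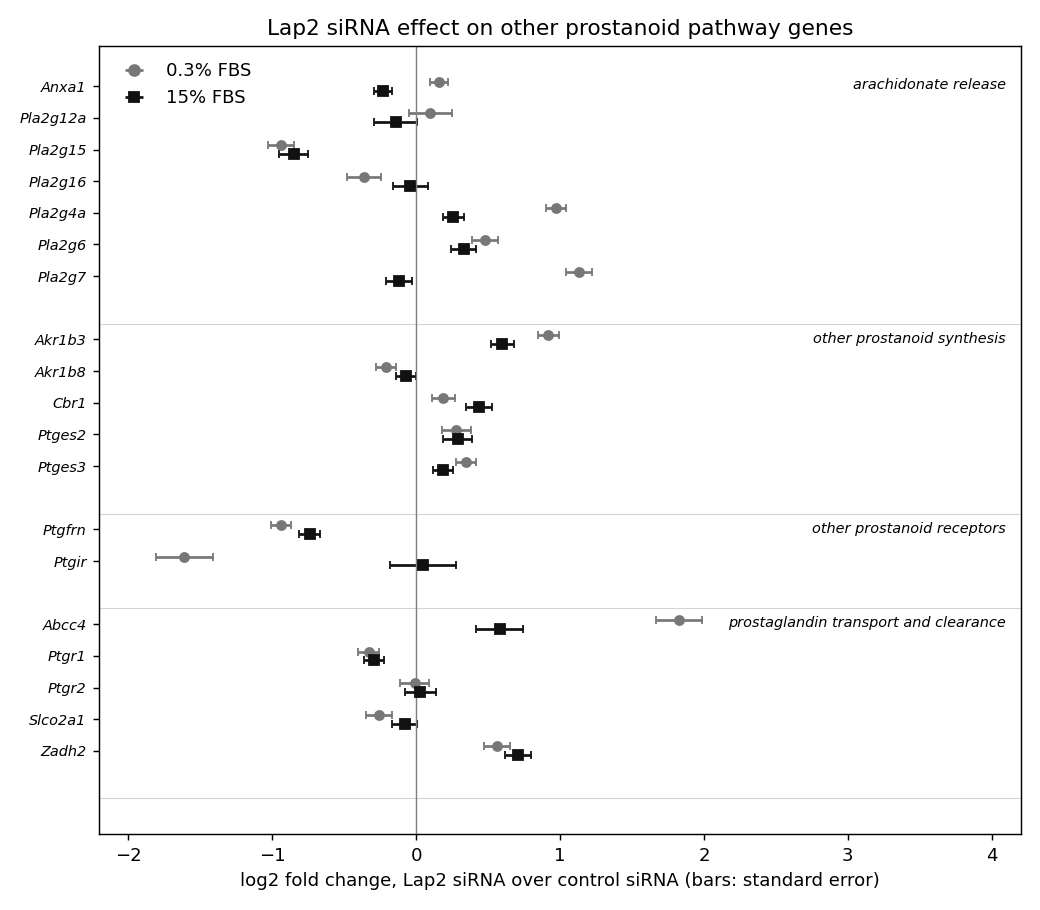
Log2 fold change of Lap2 siRNA over control siRNA, with standard errors, in 0.3% FBS (circles) and 15% FBS (squares) for pathway genes outside the 9 whose mean reached 50 normalized counts, grouped by list. Abcc4, Pla2g7 and Pla2g4a lie farthest to the right and Ptgir farthest to the left, each in 0.3% FBS.

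Factors known to act on the Ptgs2 promoter or its mRNA were also listed, 18 genes that were all tested. Serum raised 13 and lowered 3 in control cells and raised 13 and lowered 4 in Lap2-depleted cells, where 15.6% and 13.9%, and 18.3% and 14.9%, of all tested genes were raised and lowered. The medians were 0.75 and 1.11 against -0.01 and 0.00 for all tested genes. Fos, a subunit of AP-1, had log2 serum responses of 6.67 ± 0.15 (edgeR adjusted p = 3.8e-29) and 6.63 ± 0.15 (adjusted p = 3.9e-29). Egr1 rose by 5.31 ± 0.08 and 4.93 ± 0.08, and Atf3 by 5.71 ± 0.16 and 4.93 ± 0.13.

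In starved cells Lap2 siRNA raised 8 of the 18 and lowered 3, against 17.8% and 18.6% of all tested genes (median 0.18 against 0.01). Atf3 rose by 0.90 ± 0.18 (edgeR adjusted p = 1.4e-04), Zfp36, an RNA-binding protein that promotes decay of AU-rich mRNAs, by 0.76 ± 0.10 (adjusted p = 2.8e-07) and Egr1 by 0.32 ± 0.09 (adjusted p = 0.0048). Zfp36l1, a relative of Zfp36, fell (-0.34 ± 0.08, adjusted p = 8.4e-04). Fos was at 0.25 ± 0.19 (adjusted p = 0.35). At 15% FBS Lap2 siRNA raised 7 of the 18 and lowered 3, against 11.4% and 12.1% of all tested genes (median 0.12 against 0.02). Zfp36l1 was higher by 0.62 ± 0.08 (edgeR adjusted p = 1.8e-07). Cebpb, which binds the Ptgs2 promoter, was higher by 0.53 ± 0.06 (adjusted p = 1.1e-07) and Srf was lower (-0.59 ± 0.06, adjusted p = 1.0e-09).

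Genes of cAMP signalling, the pathway downstream of EP4, numbered 16 and all were tested. Serum raised 6 and lowered 1 in control cells and raised 7 and lowered 3 in Lap2-depleted cells, where 15.6% and 13.9%, and 18.3% and 14.9%, of all tested genes were raised and lowered. The medians were 0.10 and 0.01, against -0.01 and 0.00 for all tested genes. Pde4b, a phosphodiesterase that degrades cAMP, fell with serum in control (-1.41 ± 0.14, edgeR adjusted p = 6.3e-10) and Lap2-depleted cells (-0.98 ± 0.14, adjusted p = 5.5e-07). Lap2 siRNA raised 3 and lowered 6 of the 16 in 0.3% FBS, against 17.8% and 18.6% of all tested genes (median -0.14 against 0.01), and raised 2 and lowered 4 in 15% FBS, against 11.4% and 12.1% (median -0.06 against 0.02). In 0.3% FBS Crem, a cAMP-responsive transcription factor, was lower (-0.97 ± 0.18, edgeR adjusted p = 4.2e-05). Atf1, a transcription factor of the CREB family, was higher by 0.53 ± 0.07 (adjusted p = 1.8e-07) and Prkar2a, a regulatory subunit of protein kinase A, by 0.49 ± 0.08 (adjusted p = 6.8e-06).

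The genes nearest to each of the 7 were found by the root mean square difference of log2 CPM, centred per gene, over the 12 libraries and among 10448 other genes. Ptgs2 itself varied by 3.70 around its mean on this scale. Among its nearest genes were Ccn1 at 0.37, Nr4a3 at 0.71, Egr4 at 0.73, Hbegf at 0.76, Fos at 0.78, Nr4a1 at 0.79 and Dusp2 at 0.80. Ccn1 had group means of 310.0 normalized counts in starved control, 73948 in serum-stimulated control, 901 in starved Lap2 siRNA and 53529 in serum-stimulated Lap2 siRNA cells.

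Ptgs1 varied by 0.44, and nearest to it were Mcm3 at 0.07 and Frrs1 and Pola1, both at 0.10. Mcm3 had means of 925, 1097, 2118 and 1411 normalized counts in the same order of groups. Ptgis varied by 0.82, with Mmp9 at 0.10, Plpp3 at 0.12 and Boc at 0.15, and Mmp9 had means of 1799, 1786, 467 and 990.2. Ptger4 varied by 1.62, with Noct at 0.18, Pim1 at 0.19 and Ier5 at 0.20.

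Ptges varied by 0.33, with Surf6 and Plcd3 at 0.08 and Tob2 at 0.09. Ptgfr varied by 0.44, with Zkscan8 and Pdp1 at 0.09 and Cdkn1b at 0.10. For Ptger1 the nearest genes, Zfp871 and Stard9 at 0.17 and Bahcc1 at 0.18, were closer to its own spread of 0.35. All of these share the 12 libraries and their scaling, and the distances are descriptions.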

How the data were processed

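RNA of NIH 3T3 cells was sequenced in 12 libraries, 3 per group, after ribosomal RNA removal and directional library preparation. The deposited files hold raw read counts per Ensembl gene. Per the labels and methods, the authors aligned reads with TopHat2 to mm10 and counted them with HTSeq, and their processing notes also name DESeq2. The use of strand in counting is not given in the sources used here, nor is whether the 3 libraries of a group came from separate cultures, so p-values measure the spread between these samples.

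Counts were fitted with edgeR 4.0.16 (TMM factors, quasi-likelihood test) on the 18668 genes that exceeded a count of 1 in 3 or more libraries, with 1 mean per group over all 12 libraries and Benjamini-Hochberg adjustment over all genes. Contrasts were serum over 0.3% FBS within each siRNA, Lap2 over control siRNA within each serum level, and their interaction. In simulated counts of 18668 genes for Lap2 siRNA in 0.3% FBS, 97.5% of 200 genes changed by a log2 fold change of 1 were recovered. Among the unchanged genes there were 11 false calls. The 200 genes were drawn from those above a low count limit, and all genes had the same fixed dispersion. No gene was changed in another group, so these figures hold for that setting only. TPM used union exon lengths of GENCODE M21, and 99.3% of 49671 identifiers had a symbol there.

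The 9 genes, the gene lists and the tests were chosen with earlier results of these data known. Genes named from a list were taken from up to 6 per contrast with the largest absolute log2 fold change among those with an adjusted p under 0.05 and a mean of at least 50 normalized counts. Not all of these are named. For Fos and Ptgir, values are also given in a contrast where they were not called. Tbxa2r and other low genes were only counted in the tests, and genes with almost no counts are named as such. Of the genes nearest in expression, the 8 nearest to Ptgs2 and the 3 nearest to each other gene were taken, and 1 of the 8 is not reported here. Alternatives were scaling to total counts or the upper quartile, DESeq2 1.42.0, other count filters, the libraries of 1 contrast only, a replicate block and leaving out each library. Promoters were searched on both strands. Protein sequences were not used here.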

Additional observations from a re-analysis of the deposited data

Results flagged for a closer look

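The 3 serum-stimulated control libraries were all above the 3 starved ones for Ptgs1, and the 3 serum-stimulated Lap2-depleted libraries were all below theirs, a difference of -0.77 on the log2 scale. This difference was not tested, since it contains the control serum response used in the choice of the 9 genes, and with scaling to total counts the control response was -0.01.

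For 6 pathway genes outside the 9 that averaged 50 or more normalized counts, the edgeR interaction test found a serum response in Lap2-depleted cells that differed from the one in control siRNA cells. The difference, Lap2-depleted minus control, was -1.25 for Pla2g7 (adjusted p = 4.8e-09), -0.72 for Pla2g4a (adjusted p = 8.2e-06), -0.39 for Anxa1 (adjusted p = 0.0028), 1.66 for Ptgir (adjusted p = 1.7e-04) and -1.25 for Abcc4 (adjusted p = 1.8e-04), and these 5 were called under all 18 other settings. It was -0.33 for Akr1b3 (adjusted p = 0.036), which was not called when starved control replicate 3, any serum-stimulated control replicate or serum-stimulated Lap2 siRNA replicate 1 or 2 was left out (adjusted p from 0.054 to 0.14). Outside these 4 lists the edgeR interaction was called above 0 for 2 and below 0 for 1 of the 16 cAMP signalling genes. Of the 18 factors acting on Ptgs2 it was called above 0 for 3 and below 0 for 4. Over all tested genes 7.09% were called above and 6.51% below 0. Single outlying libraries within groups of 3 were not searched for.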

How the results depend on the processing

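Of 361 tested values of the 9 genes under other settings, 355 stayed on their side of the threshold. Any called value among them kept its direction. The other 6, all of Ptger1, became called. Of 297 values of the 9 genes given without a test, 285 moved by less than 1 SD of the replicates and 12 by more. The sign turned for 2 of the 361, neither called, and for 14 of the 297 (-0.20 to 0.08), among them Ptgs1 in the control serum response, which was 0.20 with TMM and -0.01 with scaling to total counts. In that contrast scaling to total counts put Ptges at 0.15. This scaling moved the median of all genes by -0.21, -0.23, 0.11, 0.09 and -0.02 over the 5 contrasts, and the upper quartile moved the serum responses by -0.10 and -0.11. Genes called higher and lower went from 2915 and 2597 to 1632 and 5847 in the control serum response, from 3420 and 2777 to 1658 and 5951 in Lap2-depleted cells, from 3330 and 3480 to 4692 and 2638 for Lap2 siRNA in 0.3% FBS and from 2125 and 2250 to 3471 and 1678 in 15% FBS. With the upper quartile the serum responses had 2183 and 3878, and 2383 and 3942. The labels number the 12 libraries in sequence and state no pairing, so replicate numbers here are the order within each group. Libraries with the same number in this order did not deviate together (r from -0.122 to 0.0991 over 18 pairs and 10449 genes, 3 of 12 libraries closest to their own number). A pairing in another order was not tested. With the replicate number as a block 5509 genes were called in the control serum response against 5512, and no call among the 9 genes changed. The interaction was not run with fewer groups. At 0 counts, Ptger2 and Hpgd could not be assessed at this depth.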

Other observations

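The lipoxygenase branch, which turns the same arachidonic acid into leukotrienes, was uneven in level. Lta4h, the leukotriene A4 hydrolase, had a mean of 1610 normalized counts over the 12 libraries and was called in no contrast, and the next gene, Alox5ap, had a mean of 24.1, both named after their values were seen. Of 12 listed genes 6 were tested. Of these, 0 were called with serum in either siRNA group by edgeR or DESeq2 (0 in control and 1 in Lap2-depleted cells at an unadjusted edgeR p under 0.05). Serum raised 15.6% and lowered 13.9% of all tested genes in control cells, and 18.3% and 14.9% in Lap2-depleted cells. Lap2 siRNA lowered 2 of the 6 in 0.3% FBS and 1 in 15% FBS, where 18.6% and 12.1% of all tested genes were lowered. The median log2 fold change was -0.17 with serum in control cells and 0.40 with Lap2 siRNA in 0.3% FBS, against -0.01 and 0.01 for all tested genes. With a gene at 0 in all starved control libraries set to its floor, these list medians were -0.49 and 0.04. Alox5, the 5-lipoxygenase, was at 0 in all libraries.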
